A study of Mus musculus with 79 samples.

Results

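The question was which genes answered silencing in 1 neuronal population but not, or not equally, in another. Nuclei sorted from visual cortex of adult mice were compared, in 35 of the series' 79 libraries and across 18359 genes with enough counts to test out of 55335 in the deposited table. An adeno-associated virus carried Kir2.1 or a mutant of it under the Syn1 promoter, each followed by a 2a peptide and the red fluorescent protein mScarlet fused to KASH, which anchors it in the nuclear envelope. All mice carried 1 copy each of the INTACT nuclear tag and of Cre recombinase driven from the Vip gene (INTACT wt/ki, VIP Cre wt/ki), and all were labelled as housed in the dark for 10 days, controls included. Mice were injected in the visual cortex at postnatal days 55 to 60 and moved to the dark 3 days later, and 50 to 100 nuclei were sorted for each library, per the labels' protocols. The protocol also mentions tissue taken after 1 hour of light, which the labels of these groups do not name. The labels call the libraries biological replicates without tying them to animals, so p-values measure the spread between libraries. The 4 groups were transduced VIP nuclei with Kir2.1 (10 libraries) or the mutant (9 libraries), and transduced nuclei labelled neurons with Kir2.1 (8 libraries) or the mutant (8 libraries). For each gene the response was the log2 fold change of Kir2.1 over mutant, and the interaction was the VIP response minus the neuron response. A response compares the 2 vectors, both in transduced nuclei. The Syn1 promoter is active in neurons of most classes.

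Kir2.1 is an inwardly rectifying potassium channel that holds the membrane near the potassium equilibrium potential and makes a neuron harder to fire. VIP neurons are GABAergic interneurons that mainly inhibit other interneurons, whereas most cortical neurons are excitatory and glutamatergic. Firing admits calcium, which drives transcription of immediate early genes such as Fos, Npas4, Egr1 and the Nr4a family, and these transcription factors in turn drive later genes, some common to many neurons and others particular to a cell class.

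Libraries held 3530952 to 9267246 counts. Levels are in CPM, the count of a gene scaled to library size. Vip, the peptide that names the class, ran from 675 to 8873 CPM in VIP nuclei and was at 0 in 9 of the 16 neuron libraries, where its highest value was 7.74 CPM. The vesicular glutamate transporter Slc17a7 had medians of 67.3 and 64.7 CPM in neurons with Kir2.1 and the mutant, against 5.0 CPM in both VIP groups. A list of 16 markers of other interneurons summed to medians of 1059 and 1131 CPM in neurons with Kir2.1 and the mutant, with 699.8 and 1088 CPM in VIP nuclei. Kcnj2, the Kir2.1 gene, whose reads from the vector and the genome were not told apart, ran from 142 to 1190 CPM over the 35 libraries and had an interaction of -0.71 ± 0.44 (SE, adjusted p = 0.899), and Syne2, which encodes a KASH-domain protein, had -0.64 ± 0.30 (adjusted p = 0.654). Library 1 of Kir2.1 VIP and library 1 of mutant VIP lay apart from their groups. Sex-linked transcripts differed from the sex on the label in 16 of the 35 libraries, although they matched between VIP and neuron libraries of the same vector and number in all 16 such pairs, so label sex was used only as an alternative covariate.

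Marker sums of several cell types moved with the vector. In neurons a list of 15 astrocyte markers summed to 351 to 542 CPM with Kir2.1 and 599 to 719 CPM with the mutant, without overlap. In VIP nuclei its medians were 665 and 675 CPM. By edgeR 2 of the 15 fell in neurons (2.05% of all genes tested) and 13 did not pass, with a median response of -0.10. The markers of other interneurons summed to 532 to 868 CPM in VIP nuclei with Kir2.1 and 983 to 1358 CPM with the mutant, also without overlap. Among the 14 tested, 2 fell there (1.31% of all genes tested) and 12 did not pass, with a median response of -0.09. Npy, 1 of the 2, had means of 18.6 CPM with Kir2.1 and 187.5 CPM with the mutant. Median Sst was 8.31 and 6.58 CPM, and median Pvalb 3.47 and 3.35 CPM. The summed level of Gad1, Gad2 and Slc32a1, which make and package GABA, ran from 33.6 to 90.9 CPM (median 60.4) in neurons with Kir2.1 and from 65.8 to 158.8 CPM (median 109.0) with the mutant, and its medians in VIP nuclei were 606 and 823 CPM. A list of 16 VIP neuron markers summed to medians of 399 and 699.6 CPM in those groups, with 2 and 1 of its genes at 0. In VIP nuclei the same list summed to 9045 to 15344 CPM with Kir2.1 and 20158 to 23533 CPM with the mutant, so those groups did not overlap, whereas a list of 18 excitatory markers without Camk2a had medians of 609.97 and 501.0 CPM. Members of the VIP list went both ways in VIP nuclei. With Kir2.1 and the mutant, median Adarb2 was 5834 and 11977.5 CPM and median Vip 1847 and 5656 CPM. Median Htr3a was 481 and 222 CPM, and median Prox1 225 and 187 CPM. In that list edgeR called 4 falls and 0 rises (1.31% and 0.795% of all genes tested). In such pooled nuclei, fewer cells of a type and less RNA of a marker per cell cannot be told apart. The part these shifts play in the responses was not tested.

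Most called responses pointed the same way in both populations. In VIP nuclei 387 genes passed an adjusted p of 0.05 (2.11% of those tested), 146 that rose (0.795%) and 241 that fell (1.31%). In neurons 516 passed (2.81%), 139 that rose (0.757%) and 377 that fell (2.05%). The 2 comparisons share no library, but whether they share animals is not known. In both populations 90 genes passed with the same direction, 20 that rose (0.109%) and 70 that fell (0.381%), together 0.49% of genes tested. These 90 made up 23.3% of the VIP calls and 17.4% of the neuron calls. With scaling to library totals alone, the median response of all genes moved to 0.12 in each population, and the calls then split into 181 that rose and 200 that fell in VIP and 214 and 279 in neurons.

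Among the 9966 genes expressed in both populations (a mean of at least 10 CPM in each), 66.4% of the responses had the same sign. Calls among them numbered 263 in VIP nuclei (2.64%), 90 that rose (0.903%) and 173 that fell (1.74%), and 428 in neurons (4.29%), 119 that rose (1.19%) and 309 that fell (3.1%). Of the 309 such genes that fell in neurons, 267 (86.4%) had a VIP estimate below 0, and of the 119 that rose in neurons, 108 (90.8%) had one above 0. Of the 173 that fell in VIP nuclei, 151 (87.3%) were below 0 in neurons, and of the 90 that rose, 81 (90.0%) were above 0. Estimates were smaller in the population that did not select the genes. Genes that fell in neurons had a median of -0.95 there and -0.35 in VIP nuclei, and those that fell in VIP nuclei had -0.90 there and -0.57 in neurons. Since each set was chosen for its size in 1 population, its estimate there tends to be too large, and the smaller value elsewhere is no measure of a weaker response. Across the 9966 genes the responses had a Pearson correlation of 0.46 and a Spearman correlation of 0.45. That is a description across genes, which share libraries and depth.

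**Figure D1:**
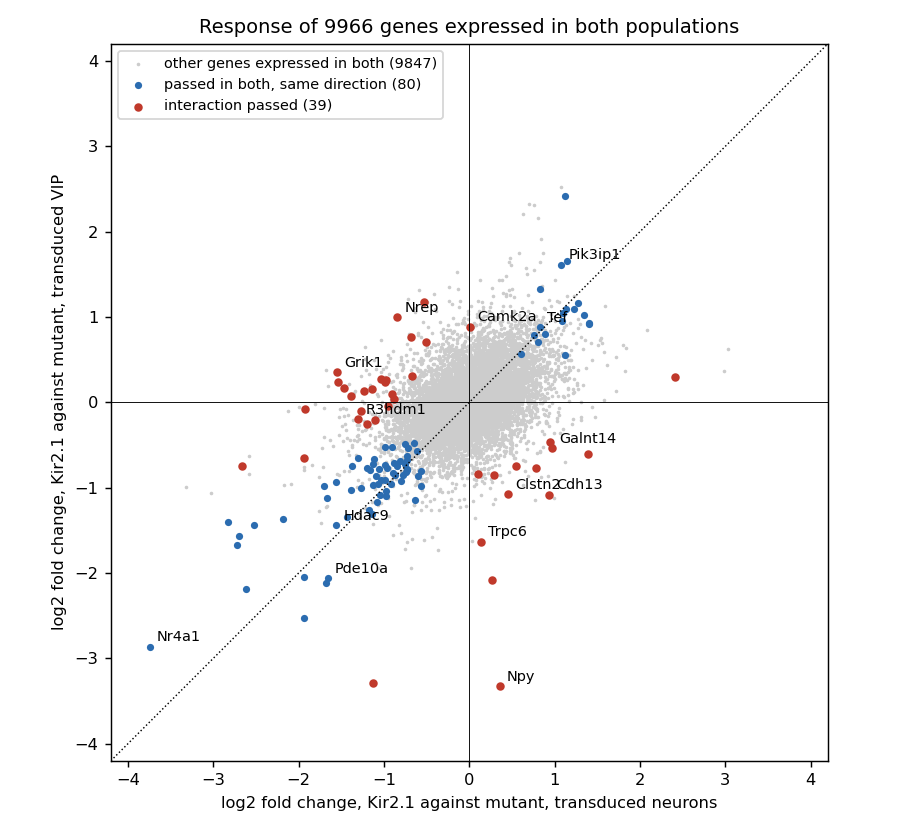
Response to Kir2.1 (log2 fold change over mutant) in neurons on the horizontal axis and in VIP nuclei on the vertical axis, 1 point per gene, for the 9966 genes expressed in both populations, with 1 gene outside the axes. The 80 blue genes passed in both with the same direction and lie near the dotted line of equal response, and the 39 red genes passed the interaction test and lie away from it.

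Very few genes passed the test of the difference itself. The interaction was called for 58 genes (0.316%), 37 positive (0.202%) and 21 negative (0.114%), and 1289 genes (7.02%) had an unadjusted p under 0.05. Among genes expressed in both populations 39 of 9966 passed (0.391%), 25 positive (0.251%) and 14 negative (0.14%). Of the 295 genes called in VIP nuclei alone only 22 (7.46%) passed the interaction test, and of the 424 called in neurons alone only 31 (7.31%) did. For the others, a call in 1 population and none in the other does not show that the responses differed. Among genes expressed in both populations, the median 95% interval of an interaction was ± 0.76 on the log2 scale. In simulated data with these library sizes, 100 genes drawn at random were given a 2-fold and 100 a 4-fold interaction. Only VIP nuclei with Kir2.1 were changed, and no other response was simulated. Of these genes 10% and 45% were recovered, and 3 unchanged genes were called, over 17533 genes. The rates cover genes at all levels and are not those of genes expressed in both populations.

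The 39 interaction genes expressed in both fell into a few patterns. Falls called in neurons and not in VIP nuclei numbered 20, with neuron responses of -2.66 to -0.68 and VIP responses of -0.75 to 0.36, and such rises numbered 4. Falls called in VIP nuclei and not in neurons numbered 8, with VIP responses of -3.33 to -0.74 and neuron responses of -1.13 to 0.54, and such rises numbered 4. The lack of a call is not the lack of a change. Bach2 and Samd4, among the 20, had VIP responses of -0.65 (adjusted p = 0.0571) and -0.75 (adjusted p = 0.233) with all 10 libraries below the mutant median. Mir670hg, among the 8, had a neuron response of -1.13 (adjusted p = 0.102) with 7 of 8 libraries below it. Others pointed the opposite way in the population without a call. Galnt14 had a VIP response of -0.54 (adjusted p = 0.126) with 9 of 10 libraries below the mutant median. Clstn2 and Ano3 had neuron responses of 0.45 (adjusted p = 0.296) and -0.53 (adjusted p = 0.256). All 8 Kir2.1 libraries in neurons lay above the mutant median for Clstn2 and below it for Ano3. Cdh13 and Nrep passed in both populations in opposite directions (0.0109% of genes tested), and Klhl5 passed in neither.

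Cdh13 (mm10 chromosome 8, 118283733 to 119324921, plus strand), a cadherin held to the membrane by a lipid anchor, had the smallest interaction p of all genes. In VIP nuclei it ran from 80.8 to 198 CPM (median 146) with Kir2.1 and from 206 to 473 CPM (median 304) with the mutant. In neurons it ran from 296 to 833 CPM (median 393) with Kir2.1 and from 135 to 329 CPM (median 231) with the mutant. The VIP groups did not overlap, as in 0.218% of all genes tested, with Kir2.1 lower, and the neuron groups overlapped while all 8 Kir2.1 libraries lay above the mutant median. The response was a 2.12-fold fall in VIP nuclei (-1.08 ± 0.19, adjusted p = 0.000535) and a 1.91-fold rise in neurons (0.94 ± 0.21, adjusted p = 0.00525). The interaction was -2.02 ± 0.28 (95% interval -2.59 to -1.44, adjusted p = 0.000194). Both responses and the interaction of Cdh13 stayed past the threshold in all 45 alternative fits.

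Nrep (chromosome 18, 33437019 to 33464029, minus strand), which encodes a small protein linked to neuronal regeneration, moved the other way. It ran from 29.4 to 91.8 CPM (median 62.9) in VIP nuclei with Kir2.1 and from 17.4 to 45.5 CPM (median 29.4) with the mutant. In neurons it ran from 14.3 to 34.8 CPM (median 28.2) with Kir2.1 and from 26.1 to 79.7 CPM (median 42.2) with the mutant. Both pairs of groups overlapped, with all 10 VIP libraries above and all 8 neuron libraries below the mutant median. It rose 2.00-fold in VIP nuclei (adjusted p = 0.0072) and fell 1.80-fold in neurons (adjusted p = 0.0431), and the interaction was 1.84 ± 0.33 (adjusted p = 0.00251). The interaction held in all 45 alternative fits, but the neuron fall alone missed the threshold in 24 of them, with an adjusted p of 0.0111 to 0.141.

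R3hdm1 (chromosome 1, 128103301 to 128237736, plus strand), a protein with a nucleic-acid-binding R3H domain whose gene hosts a microRNA of the miR-128 family, fell in neurons. There it ran from 510 to 739 CPM (median 609) with Kir2.1 and from 1263 to 1754 CPM (median 1531) with the mutant. In VIP nuclei it ran from 230 to 367 CPM (median 295) with Kir2.1 and from 304 to 452 CPM (median 336) with the mutant. The neuron groups did not overlap and the VIP groups did. Its neuron response was a 2.46-fold fall (-1.30 ± 0.12, adjusted p = 2.17e-09), its VIP response -0.20 ± 0.11 (adjusted p = 0.494), and its interaction 1.10 ± 0.17 (95% interval 0.76 to 1.44, adjusted p = 0.000328).

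Among falls called in neurons and not in VIP nuclei, Grik1, the kainate receptor subunit GluK1, ran from 14.9 to 93.7 CPM (median 55.2) in neurons with Kir2.1 and from 120 to 284 CPM (median 178) with the mutant. In VIP nuclei, where it was more abundant, the medians were 636 CPM with Kir2.1 and 507 CPM with the mutant, and the groups overlapped. Its interaction was 1.91 ± 0.32 (adjusted p = 0.0015). Grm3, a metabotropic glutamate receptor coupled to Gi, had neuron medians of 90.6 and 380 CPM with no overlap and VIP medians of 24.2 and 26.4 CPM, with an interaction of 1.85 ± 0.37 (adjusted p = 0.00808). Gabra4, a GABA-A receptor subunit found mainly outside synapses, fell from a neuron median of 179 to 72.9 CPM without overlap, while VIP medians were 59.0 and 62.2 CPM (interaction 1.37 ± 0.26, adjusted p = 0.00486). Pde7b, which breaks down cyclic AMP, fell from a neuron median of 408 to 120 CPM and had VIP medians of 117 and 104 CPM (interaction 1.64 ± 0.32, adjusted p = 0.00606). All 4 were separated by vector in neurons, as were 1.41% of all genes tested, and overlapped in VIP nuclei.

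Of the other leading genes with this pattern, Sidt1, of a family of membrane proteins that carry RNA, had neuron medians of 152 CPM with Kir2.1 and 231 CPM with the mutant (interaction 0.99 ± 0.17, adjusted p = 0.00238). Elmo1, which activates the GTPase Rac with a DOCK partner, had 78.4 and 176 CPM (1.24 ± 0.22, adjusted p = 0.00251). Thsd7b, a membrane protein with thrombospondin repeats, had 40.9 and 133 CPM (1.78 ± 0.32, adjusted p = 0.00251). VIP estimates of these 3 genes were above 0, between 0.24 and 0.31, and none passed the test in VIP nuclei.

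**Figure D2:**
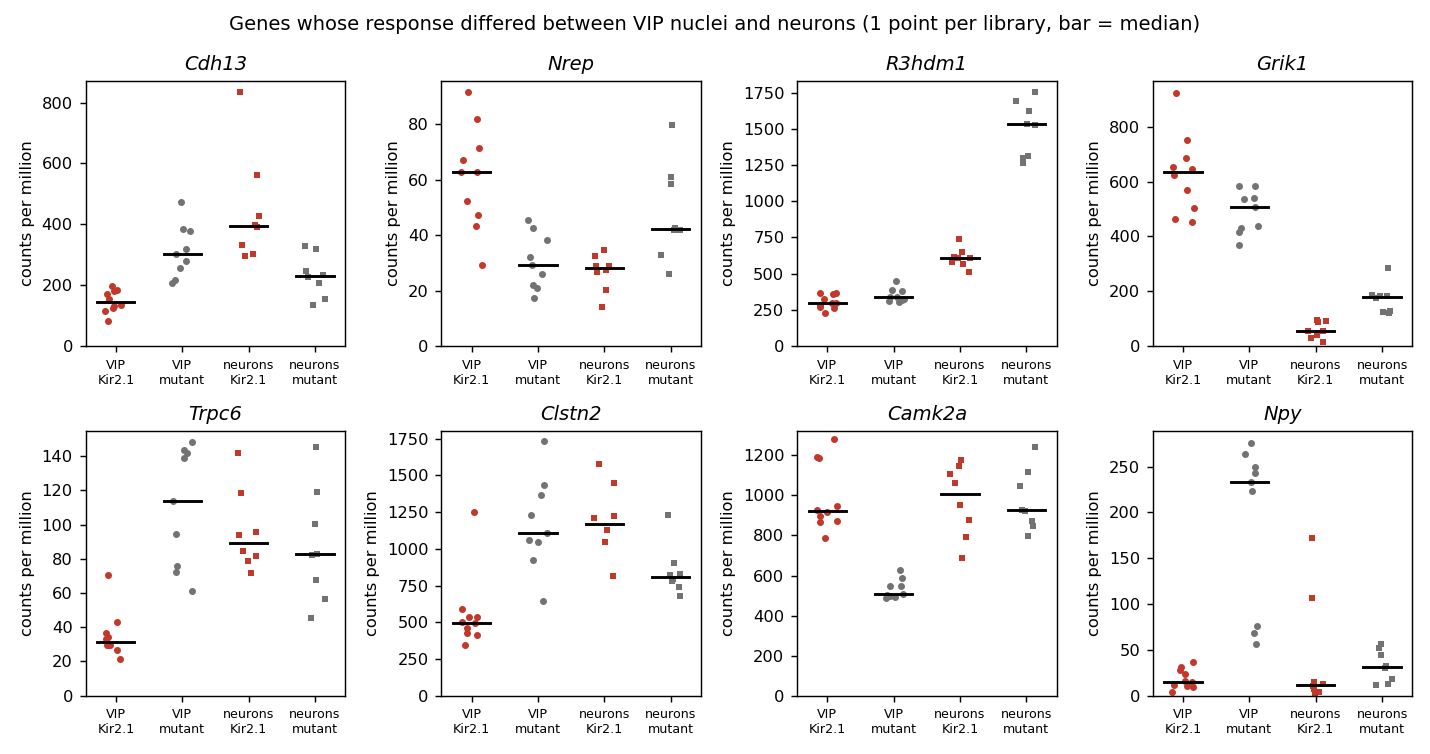
CPM in each library (1 point per library, black bar at the median, linear axis from 0) for 8 genes whose interaction passed, with Kir2.1 in red and the mutant in grey. Cdh13 and Nrep move in opposite directions in the 2 populations, R3hdm1 and Grik1 separate in neurons, and Trpc6, Clstn2, Camk2a and Npy separate or shift in VIP nuclei.

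Among falls called in VIP nuclei and not in neurons, Trpc6 (chromosome 9, 8544142 to 8680741, plus strand), a calcium-permeable cation channel opened by diacylglycerol, ran from 21.6 to 70.7 CPM (median 31.5) in VIP nuclei with Kir2.1 and from 61.0 to 148 CPM (median 114) with the mutant. Neuron medians were 89.0 and 82.6 CPM. The VIP groups overlapped through 1 library with Kir2.1 at 70.7 CPM. It fell 3.10-fold in VIP nuclei (adjusted p = 5.13e-06), with a neuron response of 0.13 ± 0.23 and an interaction of -1.76 ± 0.31 (adjusted p = 0.00251). Clstn2 (chromosome 9, 97444395 to 98033181, minus strand), a postsynaptic membrane protein with cadherin repeats, had VIP medians of 497 CPM with Kir2.1 and 1106 CPM with the mutant, and 1 Kir2.1 library at 1252 CPM. Its neuron medians were 1169 and 809 CPM, and its interaction was -1.53 ± 0.27 (adjusted p = 0.00251). Fam49a, which binds Rac1, did not overlap between VIP groups, with medians of 166 and 279 CPM against 207 and 197 CPM in neurons (interaction -0.94 ± 0.18, adjusted p = 0.00367). Hs3st4, which sulfates heparan sulfate, had VIP medians of 13.3 and 60.9 CPM and neuron medians of 658 and 579 CPM (interaction -2.34 ± 0.43, adjusted p = 0.00307).

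Npy, an inhibitory neuropeptide, had the largest fall among the 8 genes called as falls in VIP nuclei and not in neurons. It ran from 4.06 to 37.0 CPM (median 15.5) in VIP nuclei with Kir2.1 and from 56.3 to 275 CPM (median 233) with the mutant, so the groups did not overlap. In neurons the medians were 11.8 and 31.2 CPM, yet 2 Kir2.1 libraries stood at 172 and 106 CPM. The interaction of -3.68 ± 0.77 (adjusted p = 0.0149) rested on those libraries in part: without Kir2.1 neuron library 4 it was -2.86 with an adjusted p of 0.066. The VIP fall, 10.0-fold, stayed past the threshold in all 45 alternative fits.

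Rises also differed between populations. Camk2a, the alpha subunit of a calcium-activated kinase abundant in excitatory neurons, ran from 786 to 1283 CPM (median 921) in VIP nuclei with Kir2.1 and from 489 to 630 CPM (median 507) with the mutant, without overlap. In neurons the medians were 1006 and 926 CPM. It rose 1.85-fold in VIP nuclei (0.89 ± 0.12, adjusted p = 8.37e-06), with a neuron response of 0.01 ± 0.13 and an interaction of 0.88 ± 0.18 (adjusted p = 0.00919). Of 19 excitatory markers tested, Camk2a among them, 3 rose and 1 fell in VIP nuclei (0.795% and 1.31% of all genes tested), with a median response of 0.33, and the sum without Camk2a is given above. Their part in the Camk2a rise was not tested. Ano3, of the anoctamin family of membrane proteins, rose from a VIP median of 14.4 to 25.7 CPM, while its neuron medians were 235 CPM with Kir2.1 and 305 CPM with the mutant (interaction 1.71 ± 0.31, adjusted p = 0.00255).

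Among rises called in neurons and not in VIP nuclei, Galnt14, an enzyme that starts O-linked glycosylation, rose from a median of 56.9 to 110 CPM. Its VIP medians were 295 CPM with Kir2.1 and 404 CPM with the mutant, and its interaction was -1.51 ± 0.27 (adjusted p = 0.00257). Nnat, which encodes the membrane proteolipid neuronatin, ran from 17.3 to 73.5 CPM (median 26.6) in neurons with Kir2.1 and from 4.01 to 7.94 CPM (median 6.42) with the mutant. It rose 5.32-fold there, and VIP medians were 9.87 and 9.46 CPM. Its interaction of -2.11 ± 0.46 (adjusted p = 0.022) was lost without Kir2.1 neuron library 10, where it was -1.83 with an adjusted p of 0.0661.

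**Figure D3:**
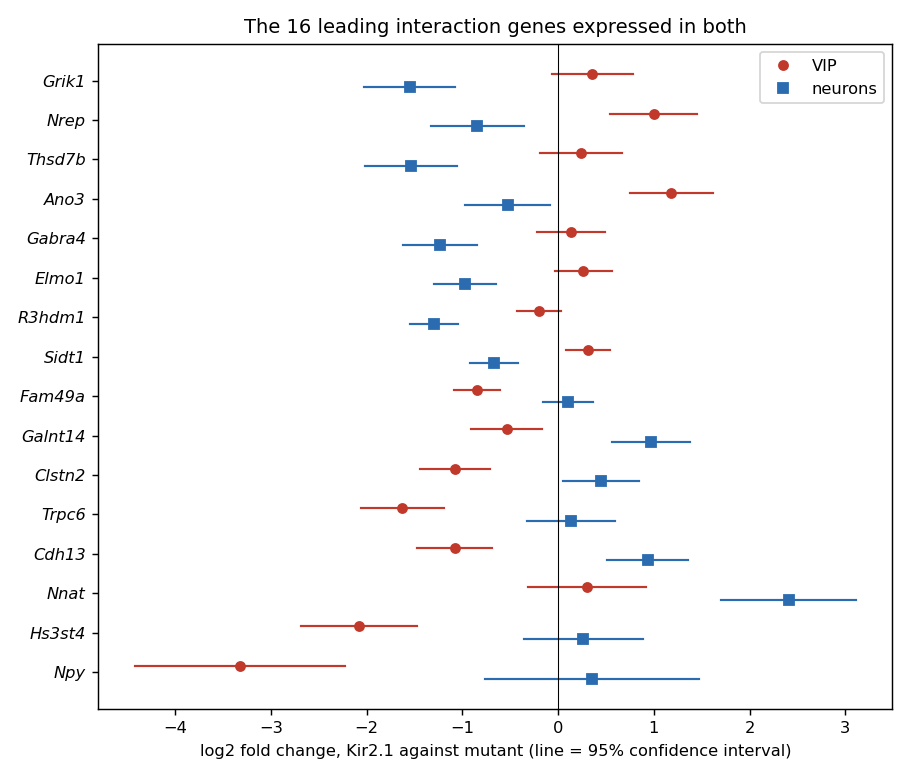
Response in VIP nuclei (red circles) and in neurons (blue squares) with 95% confidence intervals for the 8 genes with the smallest interaction p in each direction among genes expressed in both, on a log2 scale. R3hdm1, Grik1, Gabra4 and Elmo1 have VIP intervals that include 0 and neuron intervals below it, and Trpc6, Hs3st4, Fam49a and Npy show the reverse.

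The other 19 of the 58 interaction genes had a mean below 10 CPM in 1 or both populations. Egfr, a growth factor receptor, was the only gene of the 90 with a shared direction that also passed the interaction test. It ran from 96.0 to 278 CPM (median 165) in VIP nuclei with Kir2.1 and from 371 to 553 CPM (median 474) with the mutant, a 2.92-fold fall. In neurons it was near 0 with Kir2.1 (0 to 1.08 CPM) and ran from 2.01 to 17.4 CPM with the mutant. The interaction was 4.01 ± 0.61 (adjusted p = 0.000328). Prox1, a homeobox transcription factor of interneurons from the caudal ganglionic eminence, had VIP medians of 225 and 187 CPM and neuron medians of 0 and 3.73 CPM (interaction 3.04 ± 0.57, adjusted p = 0.0043).

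Sema3c, a secreted axon guidance cue, had VIP medians of 111 and 105 CPM and neuron medians of 0.808 and 11.4 CPM (interaction 2.64 ± 0.55, adjusted p = 0.0149). Cldn1, a tight junction protein, had 1 count in all neuron libraries with Kir2.1 and 82 with the mutant, a ratio of 79.4 (95% counting interval 13.9 to 3173). These 4 genes had higher levels in VIP nuclei than in neurons and fell in neurons, where the GABA genes were also lower, and the part of the latter was not tested. On the other side, Gm13684 and 1700003L19Rik, genes whose roles are not given here, had 0 counts in all VIP libraries with Kir2.1 and 111 and 104 with the mutant, at least 54.0-fold and 50.6-fold lower against a floor of 3 counts over the group. In neurons they were present with either vector, at medians of 5.11 and 8.63 CPM for Gm13684 and 2.23 and 3.37 CPM for 1700003L19Rik. Gm12153 ran from 0.61 to 26.8 CPM in VIP nuclei with Kir2.1 and from 22.4 to 86.8 CPM with the mutant (interaction -4.57 ± 0.94, adjusted p = 0.013).

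The shared response was led by falls. Of the genes expressed in both populations, 62 fell in both, with medians of -0.91 in VIP nuclei and -1.05 in neurons, and 18 rose in both, with medians of 0.99 and 1.11. None of the 80 passed the edgeR interaction test, 11 had an unadjusted p under 0.05, DESeq2 called 1, Pcsk1, and limma voom called 0. Their interactions ran from -0.59 to 1.42, and for 54 of them the 95% interval lay within ± 1, that is, within a 2-fold difference of responses. For the rest, differences over 2-fold are within the interval. The estimated change was larger in neurons for 42 of the 62 falls and 12 of the 18 rises. These genes were chosen for passing in both populations. Over genes expressed in both, the median standard error was 0.28 in neurons and 0.26 in VIP nuclei. A call in neurons thus tends to need a larger estimate, and the count is no measure of a stronger response. In 7 of the 62 the 2 vectors' libraries overlapped in neither population, against 9 of all 18359 genes (0.049%). The 62 were chosen for differing between these same libraries, so a higher share follows from the choice.

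Mlip (chromosome 9, 77102081 to 77352969, minus strand), which encodes a protein that binds nuclear lamins, was among those 7. It ran from 12.4 to 79.1 CPM (median 34.8) in VIP nuclei with Kir2.1 and from 109 to 194 CPM (median 160) with the mutant. In neurons the ranges were 58.4 to 106 CPM (median 83.9) and 193 to 342 CPM (median 258). All libraries with Kir2.1 lay below all with the mutant in both populations. The falls were 4.33-fold in VIP nuclei (adjusted p = 1.24e-08) and 3.19-fold in neurons (adjusted p = 5.47e-06), with an interaction of -0.44 ± 0.30. Pde10a, which breaks down cyclic AMP and cyclic GMP, had almost equal levels in both populations, with medians of 152 and 689 CPM in VIP nuclei and 184 and 686 CPM in neurons. It fell 4.17-fold and 3.16-fold, with an interaction of -0.40 ± 0.30. Hdac9, a class IIa histone deacetylase, fell 2.71-fold and 2.95-fold, from 587 to 210 CPM and from 355 to 110 CPM (interaction 0.12 ± 0.28).

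Osbpl3, an oxysterol-binding protein, fell from a median of 436 to 216 CPM in VIP nuclei and from 178 to 63.6 CPM in neurons, and Pdzd2, which has several PDZ domains, from 170 to 77.4 CPM and from 239 to 109 CPM. Zfp804b, a zinc finger gene, fell 2.71-fold in VIP nuclei and 5.74-fold in neurons (interaction 1.08 ± 0.34, adjusted p = 0.233). The calcium-activated adenylyl cyclases Adcy1 and Adcy8 also fell in both. Adcy1 fell 2.21-fold in VIP nuclei and 1.55-fold in neurons, the latter lost in 4 of 45 alternative fits, and Adcy8 1.67-fold and 2.59-fold. Of 34 cyclic nucleotide signalling genes, 5 fell in VIP nuclei and 7 fell and 1 rose in neurons, and 4 fell in both. The shares over all genes tested were 1.31%, 2.05%, 0.757% and 0.381%.

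Rises shared by both populations were fewer. Pik3ip1, an inhibitor of PI3 kinase, ran from 57.7 to 154 CPM (median 101) in VIP nuclei with Kir2.1 and from 18.4 to 63.0 CPM (median 26.5) with the mutant, and from 34.9 to 98.1 CPM (median 73.1) and 17.2 to 45.6 CPM (median 34.5) in neurons. The groups overlapped slightly in each population. It rose 3.06-fold and 2.11-fold (adjusted p = 2.46e-05 and 0.00805). Pnck, a calmodulin-dependent kinase, rose 2.14-fold and 2.35-fold, Trim17, a ubiquitin ligase, 1.94-fold and 2.12-fold, and Tef, a PAR bZIP transcription factor under circadian control, 1.84-fold and 1.77-fold. Rogdi and Gm42477 lie over each other on opposite strands of chromosome 16, and their reads cannot be separated. They rose about alike, 1.91-fold and 1.90-fold in VIP nuclei and 2.64-fold and 2.65-fold in neurons.

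**Figure D4:**
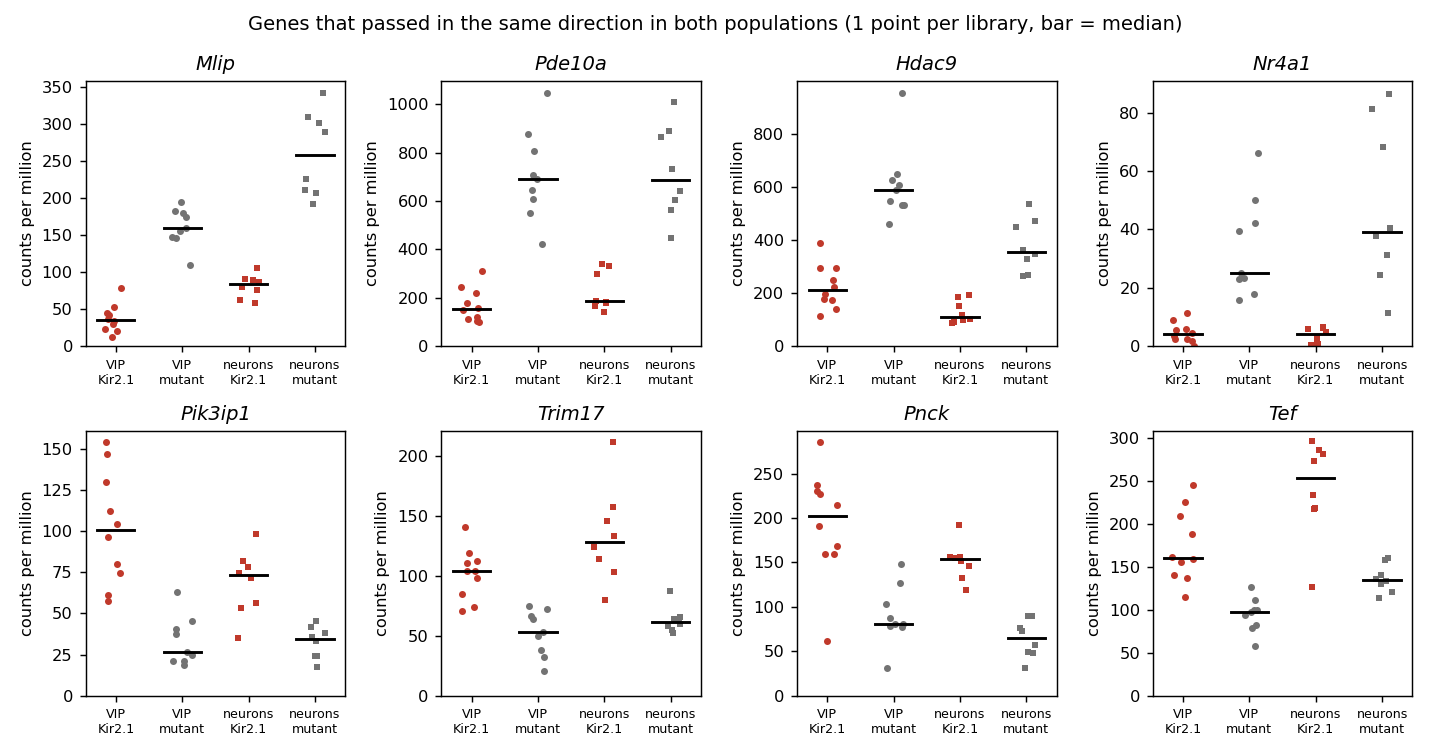
CPM in each library (1 point per library, black bar at the median, linear axis from 0) for 8 genes that passed in the same direction in both populations. In Mlip, Pde10a, Hdac9 and Nr4a1 all Kir2.1 libraries (red) lie below all mutant libraries (grey) in VIP nuclei and in neurons, and Pik3ip1, Trim17, Pnck and Tef are higher with Kir2.1 in both, with some overlap.

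Gene lists by role are given next, with the calls in each population. Over all genes tested the interaction was called for 0.316% and had an unadjusted p under 0.05 for 7.02%. At 0.316%, a short list with 0 calls shows little about its members. Of 22 immediate early genes tested, 5 fell in VIP nuclei and 4 fell in neurons, against 1.31% and 2.05% of all genes tested, and none rose. No interaction passed (0 by edgeR, DESeq2 and limma voom, 1 at an unadjusted p under 0.05). The list's medians were -0.94 and -1.11, against 0.04 and 0.01 for all genes tested. Nr4a1, an orphan nuclear receptor, ran from 0.122 to 11.4 CPM (median 4.07) with Kir2.1 and from 15.8 to 66.0 CPM (median 25.1) with the mutant in VIP nuclei. In neurons it ran from 0.42 to 6.41 CPM (median 4.11) and from 11.5 to 86.5 CPM (median 39.1). It fell 7.27-fold and 13.4-fold, without overlap in either population. Npas4, a transcription factor induced by calcium entry, had 2 counts with Kir2.1 and 193 with the mutant in VIP nuclei, a ratio of 141 (95% counting interval 38.5 to 1172), and 2 and 175 in neurons (84.7, 23.1 to 705). Fosl2, an AP-1 subunit, also fell in both, though its neuron fall missed the threshold in 12 of 44 alternative fits and its VIP fall in 5 of 45.

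Egr1, a zinc finger factor, fell 10.0-fold in neurons (adjusted p = 0.000944) and had a VIP response of -0.99 ± 0.54 (adjusted p = 0.472). Its interaction, 2.34 ± 0.81, did not pass (adjusted p = 0.315). Fos passed in VIP nuclei (adjusted p = 0.012) and had an adjusted p of 0.0525 in neurons by edgeR, while DESeq2 and limma voom called it in both, with an interaction of -0.38 ± 1.68. Bdnf, a secreted neurotrophin, had medians of 4.13 and 22.9 CPM in neurons and passed in neither population by edgeR, while limma voom called it in neurons.

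Of 28 late activity-regulated genes, 9 fell in neurons and 3 in VIP nuclei, against 2.05% and 1.31% of all genes tested, with medians of -0.98 and -0.42. The difference between these counts was not tested. No interaction passed in edgeR (0.316% of all genes tested) or limma voom, and DESeq2 called 2, Pcsk1 and Scg2. By edgeR 8 had an unadjusted p under 0.05 (7.02% of all genes tested). Scg2, a granule protein and peptide precursor, came near, with a VIP response of 0.05, a neuron response of -1.41 and an interaction of 1.47 (adjusted p = 0.0709). Pcsk1, the protease that cleaves prohormones, fell in both without overlap. It ran from 18.9 to 42.0 CPM (median 31.5) and 43.4 to 139 CPM (median 77.1) in VIP nuclei, and from 2.11 to 11.2 CPM (median 6.64) and 24.7 to 101 CPM (median 42.3) in neurons. It fell 2.64-fold and 7.07-fold, with an interaction of 1.42 ± 0.38 (adjusted p = 0.0982). Vgf, another granule protein, and Pthlh, a peptide hormone, fell in both, though the neuron fall missed the threshold in 15 of 45 alternative fits for Vgf and in 1 of 44 for Pthlh.

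Neuropeptide precursors other than Npy included Penk, the enkephalin precursor, which fell 4.13-fold in VIP nuclei and 3.83-fold in neurons, the latter missing the threshold in 13 of 45 alternative fits. Crh, Cck and Cort were called by edgeR in VIP nuclei and not in neurons, with no interaction past the threshold, and DESeq2 called Crh in neurons too. Vip itself had medians of 1847 and 5656 CPM in VIP nuclei, and its response of -1.57 ± 0.50 had an adjusted p of 0.0922. Over the 16 precursors tested 5 fell in VIP nuclei and 2 in neurons, against 1.31% and 2.05% of all genes tested.

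Sterol synthesis and uptake genes had the largest median interaction among the lists of more than 5 tested genes. Of 23 tested, 11 rose in VIP nuclei and 1, Tm7sf2, rose in neurons, against 0.795% and 0.757% of all genes tested. The medians were 1.22 and 0.48, with a median interaction of 0.81, against 0.03 for all genes tested. No member's interaction passed in edgeR (0.316% of all genes tested) or limma voom, and DESeq2 called 1, Lss. By edgeR 11 had an unadjusted p under 0.05 (7.02% of all genes tested). Lss, lanosterol synthase, came nearest, with a VIP response of 1.36, a neuron response of -0.24 and an interaction adjusted p of 0.0548. Fdps, which makes farnesyl diphosphate, rose 3.77-fold in VIP nuclei, and its neuron response was 0.84 (adjusted p = 0.113). Msmo1, a sterol demethylase, had an interaction of 1.13 (adjusted p = 0.283). The counts were the same under all 3 scalings. Earlier results of these libraries were known when the list was chosen, so its count is a description.

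Of 42 potassium channel genes edgeR called 10 falls in neurons (2.05% of all genes fell) and 3 falls (1.31% of all genes) and 1 rise in VIP nuclei, and DESeq2 called 10 and 7 genes. Kcnn2, a calcium-activated channel, and Kcnj3, a G protein-gated inward rectifier, fell in both, with interactions of 0.17 ± 0.20 and -0.05 ± 0.26, and the neuron fall of Kcnj3 missed the threshold in 9 of 45 alternative fits. Kcnc1, a fast delayed rectifier, was the 1 rise, from a mean of 107 to 216 CPM in VIP nuclei, with an interaction adjusted p of 0.356. A list of 33 genes for sodium, calcium and related cation channels had 7 falls in neurons and 1 in VIP nuclei. No channel gene of either list passed the interaction test in edgeR (0.316% of all genes tested), DESeq2 or limma voom. At an unadjusted p under 0.05 there were 7 potassium and 6 other channel genes (7.02% of all genes tested). The list medians were -0.18 in VIP nuclei and -0.39 in neurons for potassium channels and -0.15 and -0.27 for the others.

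Of 50 adhesion genes tested, 10 fell in VIP nuclei, and 10 fell and 1, Cdh13, rose in neurons, with medians of -0.36 and -0.40. The shares over all genes tested were 1.31%, 2.05% and 0.757%. In both populations 4 of the 50 fell (0.381% of all genes tested). Flrt2, a ligand of latrophilin receptors, fell 2.12-fold and 2.06-fold, Cdh20 1.81-fold and 1.83-fold, Cdh8 1.97-fold and 1.48-fold, and Cdh6 fell by 0.81 and 0.57 on the log2 scale. Their interactions lay between -0.42 and 0.02, and the neuron fall of Cdh8 missed the threshold in 29 of 45 alternative fits. Cdh13 was the only member of the list whose interaction passed (0.316% of all genes tested), and 12 had an unadjusted p under 0.05 (7.02% of all genes tested). Among GABA receptor and inhibitory synapse genes, Gabrb2, a GABA-A subunit, fell 1.82-fold and 1.52-fold, the latter lost in 26 of 45 alternative fits, whereas Gabra4 fell in neurons as given above. Lists of 41 cytosolic ribosomal protein genes and 28 oxidative phosphorylation genes had no member called for either response or the interaction by edgeR, DESeq2 or limma voom. At an unadjusted p under 0.05 there were 6, 3 and 1 ribosomal genes and 0, 2 and 0 others for the VIP response, the neuron response and the interaction. Over all genes tested edgeR called 2.11%, 2.81% and 0.316%, and 7.02% had an unadjusted interaction p under 0.05.

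**Figure D5:**
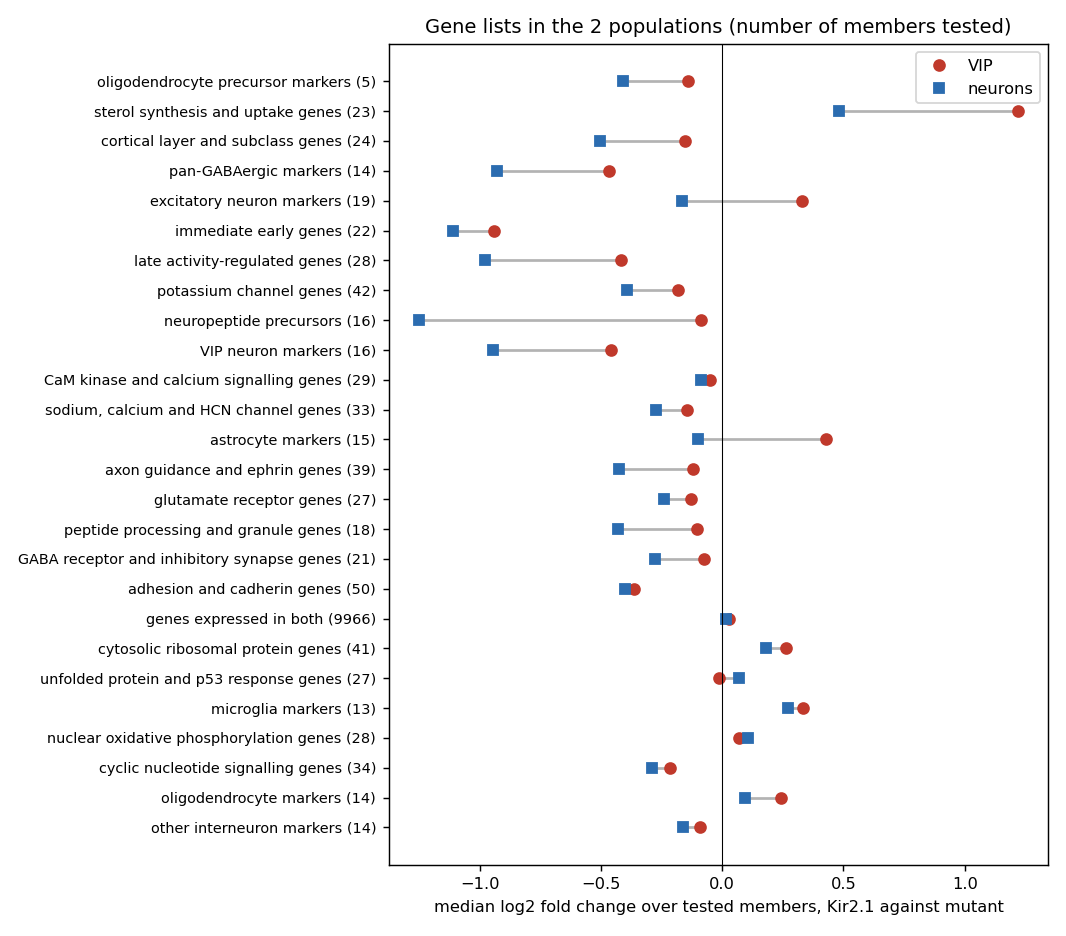
Median log2 fold change of Kir2.1 over mutant over the tested members of each gene list, in VIP nuclei (red circles) and in neurons (blue squares), for lists with at least 5 members tested, with all genes expressed in both as a reference near 0. Immediate early genes lie near -1 in both, sterol genes are farther right in VIP nuclei, and late activity-regulated genes are farther left in neurons.

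Binding motifs of the factors that activity induces were looked for in the 250 bases upstream of start sites, in RefSeq promoters on GRCm38.p6, on both strands. The motifs were the cyclic AMP response element TGACGTCA, the AP-1 site TGANTCA, the CArG box of serum response factor, the Nr4a site AAAGGTCA and the sterol regulatory element. RefSeq entries matched 46 of the 70 genes that fell in both populations and 43 of the 58 interaction genes. The cyclic AMP element was in 1 of 68 promoters of the shared falls (1.47%) and in 1 of 63 promoters of interaction genes (1.59%), against 1.55% of all 32851 promoters and 2.85% of the 9689 promoters of genes expressed in both. The AP-1 site was in 7 of the former (10.3%, 6 genes) and 6 of the latter (9.52%, 3 genes, with 4 promoters from Mir670hg), against 6.75% of all and 3.89% of those of genes expressed in both. The CArG box was in 0 of the former and 2 of the latter (3.17%, 2 genes, Trpc6 among them). Its shares were 1.47% of all promoters and 1.04% of those of genes expressed in both. The Nr4a and sterol sites were in 0 promoters of either set, against 1.34% and 0.0731% of all. The 3 promoters below are shown because they carry the only such element of a shared fall (Pcsk1), the only one of an interaction gene (Clstn2), and the CArG box of Trpc6, with the motif in capitals, read 5′ to 3′ on the gene's strand and ending before the annotated gene.
Pcsk1 (chr13:75089607-75089825, plus strand): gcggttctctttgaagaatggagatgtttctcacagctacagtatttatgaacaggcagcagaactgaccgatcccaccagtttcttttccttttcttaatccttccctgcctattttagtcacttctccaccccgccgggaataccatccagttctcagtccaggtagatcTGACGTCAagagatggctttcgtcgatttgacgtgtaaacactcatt
Clstn2 (chr9:98033182-98033417, minus strand): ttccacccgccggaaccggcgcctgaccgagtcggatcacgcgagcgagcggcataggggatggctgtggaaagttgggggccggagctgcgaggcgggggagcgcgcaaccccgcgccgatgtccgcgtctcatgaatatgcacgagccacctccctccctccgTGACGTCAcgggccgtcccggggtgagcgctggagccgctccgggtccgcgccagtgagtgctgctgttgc
Trpc6 (chr9:8543892-8544141, plus strand): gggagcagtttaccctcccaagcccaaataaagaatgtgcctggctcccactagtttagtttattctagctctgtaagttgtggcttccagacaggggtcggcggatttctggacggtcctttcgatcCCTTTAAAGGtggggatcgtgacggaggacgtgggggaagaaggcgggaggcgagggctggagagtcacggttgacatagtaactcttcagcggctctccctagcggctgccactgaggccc

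Positions are counted from the RefSeq start site. The elements lie 78 to 71 bases before it in Pcsk1, 85 to 78 in Clstn2 and 122 to 113 in Trpc6. The annotated gene begins upstream of that site in Pcsk1 and Clstn2, so 219 and 236 of their 250 bases are shown. Clstn2 and Trpc6 were called as falls in VIP nuclei and not in neurons, and Pcsk1 in both. A match of letters in this window is a description and no evidence that a factor binds there.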

How the data were processed

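Per the labels' protocols, RNA of sorted nuclei was reverse transcribed, amplified for 17 cycles and made into Nextera XT libraries, which do not mark strand. STAR 2.5.3a, cutadapt 1.18 and HOMER 4.9.1 are listed with mm10 in the submitters' processing notes. The authors deposited raw read counts per gene in 1 table, with whole numbers and no normalization in the file. Of 55335 gene IDs, 55154 matched a gene name, and the rest held 0.0264% of counts. The protocol describes no molecular identifiers, so counting intervals cover counting error only. Libraries totalled 3530952 to 9267246 counts, and no 2 libraries were identical.

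The 35 transduced libraries were fitted together in edgeR 4.0.16 (R 4.3.3), with TMM scaling, filterByExpr (10 counts at least, 15 in total), 1 coefficient per group and quasi-likelihood tests. Tests were two-sided and adjusted by Benjamini-Hochberg over 18359 genes, with a threshold of 0.05. The standard error was the fold change divided by the root of F. Intervals are at 95%. Alternatives were DESeq2 1.42.0, limma 3.58.1 (voom), other scalings and filters, replicate blocks, and leaving out each library. The procedure was tested on simulated data. Genes were named by rule: the vector's genes, R3hdm1 and Cdh13, the 8 leading interaction genes in each direction and the 6 leading shared genes in each direction among those expressed in both, all opposite genes, the 3 leading interaction genes in each direction among the others, list members whose interaction passed or that were called in both populations (at most 5 and 4 a list), and Fos, Nr4a1, Egr1, Npas4, Bdnf, Vip and Gad1. Klhl5, Bach2, Samd4, Mir670hg, Cdh6, Scg2, Crh, Cck, Cort, Kcnc1, Lss, Fdps, Msmo1 and Tm7sf2 were chosen after their values were seen. Promoters came from RefSeq. The members and lists were chosen with earlier results of these data known. A few named items are not reported here.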

Additional observations from a re-analysis of the deposited data

Results flagged for a closer look

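Expression of 70 named genes was checked in each of the 4 groups for a library far from the rest of its group. The gap between the extreme library and its neighbour passed Dixon's 95% value in 38 of 280 combinations (13.6%), where chance gives about 1 in 20 for normally distributed values. The values checked were CPM, not on a log scale. For Cldn1, Npas4 and Pthlh in neurons with Kir2.1, all libraries but the flagged one were at 0. The 2 rates therefore cannot be compared. The highest library stood out in 35 and the lowest in 3. In neurons with the mutant the libraries that stood apart were library 2 for 1700003L19Rik at 10.9 CPM, library 3 for Pcsk1 at 101 CPM, library 4 for Clstn2 at 1232 CPM, library 4 for Grik1 at 284 CPM, library 5 for Trim17 at 87 CPM, library 6 for Fos at 17.1 CPM, library 7 for Pthlh at 6.17 CPM. In neurons with Kir2.1 the libraries that stood apart were library 3 for Cldn1 at 0.151 CPM, library 3 for Fosl2 at 2.86 CPM, library 4 for Penk at 12.8 CPM, library 5 for Bdnf at 11.4 CPM, library 5 for Fos at 2.35 CPM, library 5 for Sema3c at 7.77 CPM, library 6 for Npas4 at 0.329 CPM, library 7 for Vip at 7.74 CPM, library 8 for 1700003L19Rik at 17.2 CPM, library 8 for Cdh8 at 513 CPM, library 8 for Dlx1 at 3.5 CPM, library 8 for Sema6a at 66.1 CPM, library 10 for Dlx6os1 at 14.3 CPM, library 10 for Egfr at 1.08 CPM, library 10 for Pthlh at 0.865 CPM, library 10 for Tef at 126 CPM (lowest). In VIP nuclei with Kir2.1 the libraries that stood apart were library 1 for Gm12153 at 26.8 CPM, library 2 for Npas4 at 0.253 CPM, library 3 for Fos at 6.52 CPM, library 4 for Trpc6 at 70.7 CPM, library 6 for Clstn2 at 1252 CPM, library 6 for Gabrb2 at 431 CPM, library 6 for Kcnj3 at 423 CPM, library 6 for Pde7b at 293 CPM, library 6 for Pde8b at 329 CPM. In VIP nuclei with the mutant the libraries that stood apart were library 1 for Gm42477 at 23.5 CPM (lowest), library 1 for Hdac9 at 954 CPM, library 1 for Pdzd2 at 274 CPM, library 1 for Rogdi at 23.5 CPM (lowest), library 1 for Slc4a4 at 216 CPM, library 8 for Syne2 at 252 CPM.

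The VIP and neuron responses of 26 named genes differed by the edgeR interaction test. On the log2 scale the difference was positive for R3hdm1 (1.10), Egfr (4.01), Grik1 (1.91), Sidt1 (0.99), Cldn1 (5.62), Elmo1 (1.24), Nrep (1.84), Thsd7b (1.78), Ano3 (1.71), Prox1 (3.04), Gabra4 (1.37), Pde7b (1.64), Grm3 (1.85), Camk2a (0.88), Sema3c (2.64). It was negative for Cdh13 (-2.02), Clstn2 (-1.53), Trpc6 (-1.76), Galnt14 (-1.51), Hs3st4 (-2.34), Fam49a (-0.94), Gm13684 (-6.10), Gm12153 (-4.57), Npy (-3.68), Nnat (-2.11), 1700003L19Rik (-7.01). For Cldn1, Gm13684 and 1700003L19Rik, with 0 or 1 count in a group, the fitted value depends on the prior count and is no measure of size.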

How the results depend on the processing

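No named gene's called result reversed in any alternative. Of the 58 interaction genes 26 were called whichever 1 of the 35 libraries was left out, and 22 in all 45 refits, 18 of them expressed in both populations. Leaving out 1 library gave 36 to 61 interaction genes (20 to 41 positive, 13 to 27 negative), 26 to 43 of them expressed in both, 297 to 638 VIP calls (105 to 196 rose, 189 to 442 fell), 370 to 567 neuron calls (92 to 192 rose, 259 to 398 fell), 70 to 146 shared and 1 to 3 opposite. The largest shifts came without Kir2.1 VIP library 6 (638 VIP calls, 146 shared), Kir2.1 neuron libraries 9, 3 and 4 (36, 38 and 38 interaction genes) and mutant neuron libraries 3 (38 interaction genes, 92 neuron rises) and 8 (13 negative). Replicate numbers were not treated as pairing, because the labels do not tie them to animals. Same-numbered VIP and neuron libraries of a vector correlated above 0.1 in 4 of 8 Kir2.1 and 5 of 8 mutant pairs. In 3 and 5 of these pairs the best match was the same number. Sex-linked transcripts matched in all 16 such pairs, so the libraries of a pair may share an animal, which these correlations cannot decide. The replicate block across vectors and populations gave 38 interaction genes, 36 of them shared with the reported 58, with 11 negative and 1 opposite gene. The replicate block within vector gave 49 interaction genes, 32 of them shared with the reported 58, with 12 negative. Both blocks ended the interactions of Npy (adjusted p = 0.153 and 0.165), Nnat (0.0881 and 0.0854) and 1700003L19Rik (0.176 and 0.4), and the block within vector those of Cldn1 (0.074) and Gm13684 (0.137). Without Kir2.1 neuron library 8 the interaction of 1700003L19Rik had an adjusted p of 0.0548. DESeq2 called 104 interaction genes (72 positive, 32 negative; 64 expressed in both), 221 VIP rises, 780 neuron genes (243 rose) and 151 shared. limma voom called 83 VIP rises and 1222 neuron genes (368 rose, 854 fell). It called 50 interaction genes, 38 of them among the reported 58. By limma voom the interactions of Npy (adjusted p = 0.192), Nnat (0.101), Cldn1 (0.217), Gm13684 (0.287) and 1700003L19Rik (0.514) did not pass. With no filter on low counts there were 274 interaction genes (130 positive, 144 negative; 60 expressed in both) and 1 opposite. The VIP libraries fitted alone gave 226 calls (65 rose) and the neuron libraries alone 898 (347 rose). Neuron rises were 214 with library totals and 217 without the libraries that stood apart. At adjusted p under 0.01 there were 37 shared and 1 opposite genes, and under 0.1 152 shared. The cause of these shifts was not tested.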
